A study of Mus musculus with 6 samples.

Results

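The macrophage, monocyte and dendritic cell genes described here are a list of 35 symbols covering surface receptors, growth factors, complement subunits and transcription factors of these cells. Members were found by their platform gene symbol, and 34 of the 35 had a row of their own among the 19938 genes tested. Lilrb4 had no row under that symbol. The gene now named Lilrb4a, which carries the same identifier and lists Lilrb4 as a synonym in RefSeq, is given apart from the 34. Colon tissue had been taken from 3 VilCre;Ihhflox/flox mice and from 3 control littermates, 1 pair from each of 3 litters, and hybridised to Affymetrix Mouse Gene 1.0 ST arrays. The mutants lack Ihh, which encodes the secreted ligand Indian hedgehog, in cells where the villin promoter drives Cre recombinase, that is, in the epithelium of the gut. The controls are labelled wild type, and their floxed or Cre alleles are not stated in the labels. All were harvested at postnatal day 12 by the design text, but between days 9 and 12 by the growth protocol. Expression values are in log2 units after RMA, and differences are given as mutant minus control.

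Mononuclear phagocytes of the gut wall comprise resident macrophages, dendritic cells and the blood monocytes that replace many of them. Monocytes enter tissue with the help of the chemokine receptor CCR2 and mature under signals through the receptor of colony stimulating factor 1, while dendritic cells depend on FLT3. Macrophages of the colon take up dead cells and bacteria, and those of the muscle layer lie close to nerve and smooth muscle cells.

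Expression of the members went both ways, and their median difference was -0.06, beside 0.01 over all genes tested. Of the 34 measured members 3 rose, 2 fell and 29 did not pass in the limma fit with the litter as a block (adjusted p under 0.05 over 19938 genes). Over all genes 1.66% rose and 2.11% fell, 3.77% in all. The members that rose were Fcgr2b, Clec4d and Itgam, and those that fell were Csf1 and Aif1. Their changes were between 1.31-fold and 1.67-fold. At an unadjusted p under 0.05 stood 13 of the 34 members, against 15.1% of all genes. All 3 mutants lay above all 3 controls for 6 members, against 10% of genes tested, and below them for 5 members, against 9.78%. Since these were bulk tissue samples, fewer cells of a type and less RNA per cell cannot be told apart. No member was left out for low signal. However, 9 of the 34 were among the dimmest 30% of genes, Clec4d and Clec4e among them, and as background was not estimated, how far these dim genes changed is uncertain. When every row of the table entered the fit, which adds unnamed rows, rows with several symbols and further rows of a gene, limma called 0 members, with 12 at an unadjusted p under 0.05.

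**Figure D1:**
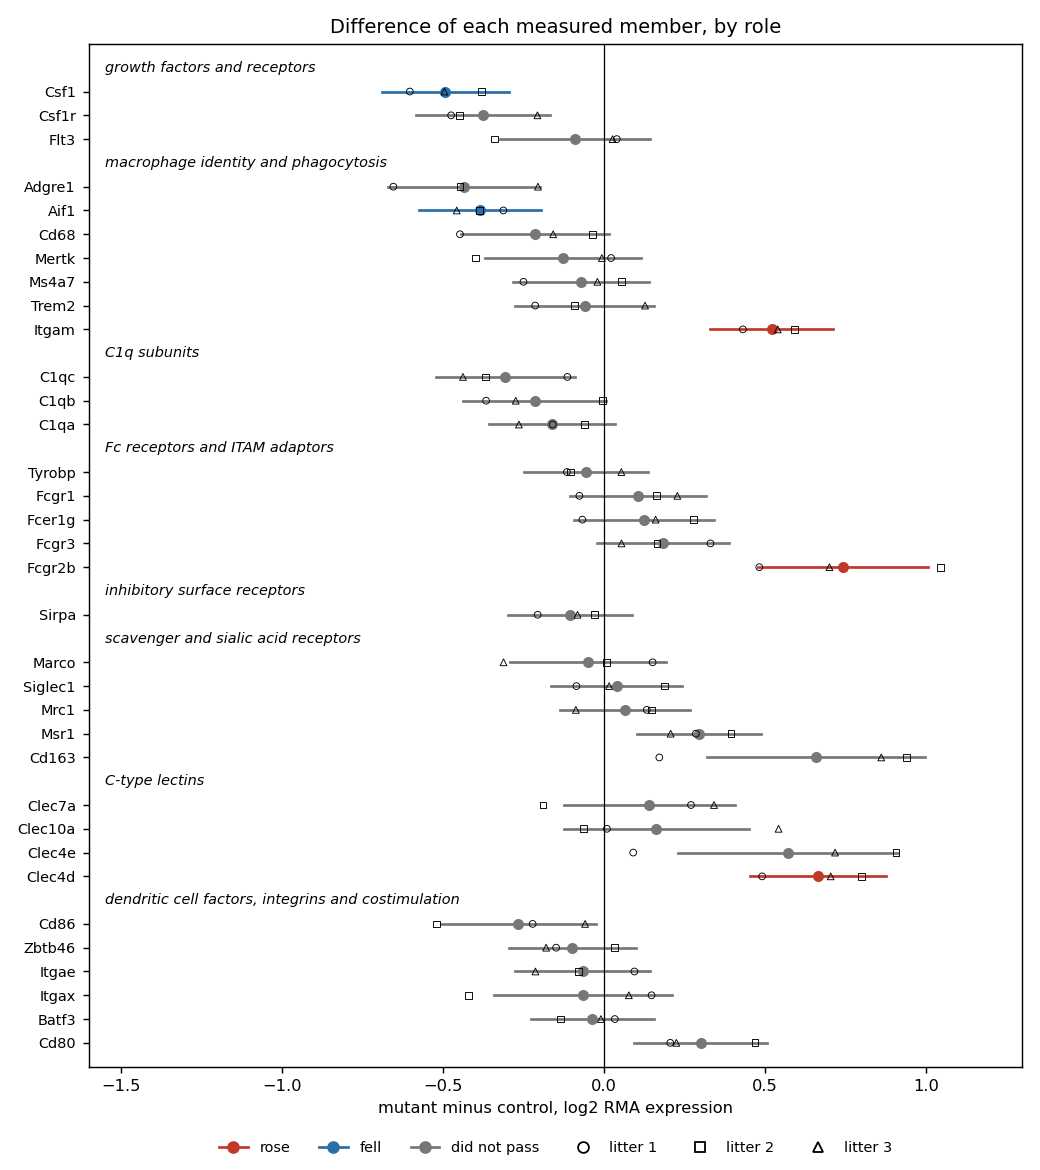
Difference between mutant and control (log2 RMA expression, x axis) for the 34 measured members, grouped by role. Filled points are means with 95% confidence intervals of the limma fit, open symbols are the 3 litters. Csf1 and Aif1 lie left of 0 in all litters, and Itgam, Fcgr2b and Clec4d lie right of 0 in all litters. Of the 34 members 18 had the same sign in the 3 litters, as had 7158 of all 19938 genes.

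The arrays gave a partial check of the labels. Ihh itself read 8.37, 8.22 and 8.22 in mutants 1 to 3, against 8.50, 8.54 and 8.68 in controls 1 to 3, and did not pass (adjusted p = 0.139), while Ptch1, a receptor and transcriptional target of hedgehog signalling, was 2.71-fold lower in mutants. The part of Ihh that was deleted is not stated, so its row checks the labels in part. Array medians lay between 7.10 and 7.14. The mean over 9 measured epithelial markers of colon was 12.26 to 12.35 in mutants and 12.10 to 12.21 in controls, and 0 of them passed in either direction (limma, with 2 at an unadjusted p under 0.05).

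Both ligand genes of the CSF1 receptor fell in the mutants. Csf1 encodes colony stimulating factor 1, which macrophages need for survival and which stromal and endothelial cells make. It read 7.56, 7.64 and 7.67 in mutants 1 to 3, against 8.16, 8.02 and 8.16 in controls 1 to 3. The groups did not overlap, and Csf1 fell by 0.49 ± 0.085 (SE), which is 1.41-fold, with limma adjusted p = 0.0217. Il34, the other ligand of the same receptor and no member of the list, read 6.97, 7.08 and 6.99 in mutants and 7.33, 7.42 and 7.41 in controls, and fell by 0.37 ± 0.080 (limma adjusted p = 0.0461). It was the 1 gene past the threshold among 12 further growth factors and chemoattractants of these cells, with 0 rises. Both ligand genes were lower in every mutant than in any control. Csf1r, the gene of their receptor, read 8.43, 8.28 and 8.65 in mutants and 8.90, 8.73 and 8.85 in controls. Its groups did not overlap either, but the difference of -0.38 ± 0.090 did not pass (limma adjusted p = 0.0670). Flt3, the receptor tyrosine kinase of dendritic cell precursors, stood at -0.09 ± 0.10 with overlapping groups, and the 95% interval of its difference was -0.32 to 0.14. The gene of its ligand, Flt3l, stood at -0.14 and did not pass. Without litter 3 the adjusted p of Csf1 was 0.0697 (range over 12 alternatives 0.00949 to 0.170), and that of Il34 was 0.0658, 0.114 and 0.243 without litters 1, 2 and 3 (range 0.0194 to 0.243). Stromal markers moved with these ligands. Of 6 smooth muscle markers 4 fell (Myh11, Cnn1, Des and Actg2) and 0 rose, with a list mean of 11.88 to 12.33 in mutants and 12.54 to 12.64 in controls. Of 10 blood endothelium markers 6 fell (Kdr, Plvap, Tie1, Cdh5, Emcn and Tek) and 0 rose, with a list mean of 7.96 to 8.11 in mutants and 8.36 to 8.60 in controls. The part of these cells in the fall of Csf1 and Il34 was not tested.

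Among 7 genes by which macrophages are usually recognised, 1 fell, 1 rose and 5 did not pass. Aif1 encodes Iba1, a calcium-binding protein of macrophages. It read 6.55, 6.42 and 6.70 in mutants, against 6.86, 6.81 and 7.16 in controls. All mutants lay below all controls, and Aif1 fell by 0.38 ± 0.081 (limma adjusted p = 0.0450). This call was the least firm of the 5, with adjusted p = 0.0510, 0.121 and 0.247 without litters 1, 2 and 3 and 0.120 without the litter block (range over 12 alternatives 0.0157 to 0.247). Adgre1, which encodes F4/80, read 7.51, 7.61 and 7.92 in mutants and 8.17, 8.06 and 8.13 in controls. Its groups did not overlap, and the difference of -0.43 ± 0.10 missed the threshold (limma adjusted p = 0.0641), while without litter 3 it had adjusted p = 0.0409 (range 0.0409 to 0.279). Cd68, a lysosomal glycoprotein of phagocytes, stood at -0.21 ± 0.10 with groups that overlapped, and at -0.0967 without litter 1 and -0.302 without litter 2. Mertk, a receptor for dying cells, stood at -0.13, Ms4a7, a membrane protein of macrophages, at -0.07 and Trem2, a lipid-sensing receptor of phagocytes, at -0.06, and none of these 3 passed.

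Itgam encodes CD11b, the integrin subunit that monocytes, macrophages and neutrophils share. It was the 1 member of this group that rose and read 7.59, 7.97 and 7.64 in mutants, against 7.16, 7.38 and 7.10 in controls. It rose by 0.52 ± 0.082, or 1.44-fold (limma adjusted p = 0.0160), with no overlap of the groups. Adjusted p was 0.0546 without litter 3 and 0.0515 without the litter block (range 0.00461 to 0.148). Itgb2, the gene of the chain with which CD11b pairs, stood at 0.11 and did not pass. Itgax, the gene of CD11c next to Itgam on chromosome 7, stood at -0.06 ± 0.12. A further 3 rows of the array that carry the symbols of both Itgam and Rpl35 were not used for Itgam, and they stood between 0.08 and 0.09.

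**Figure D2:**
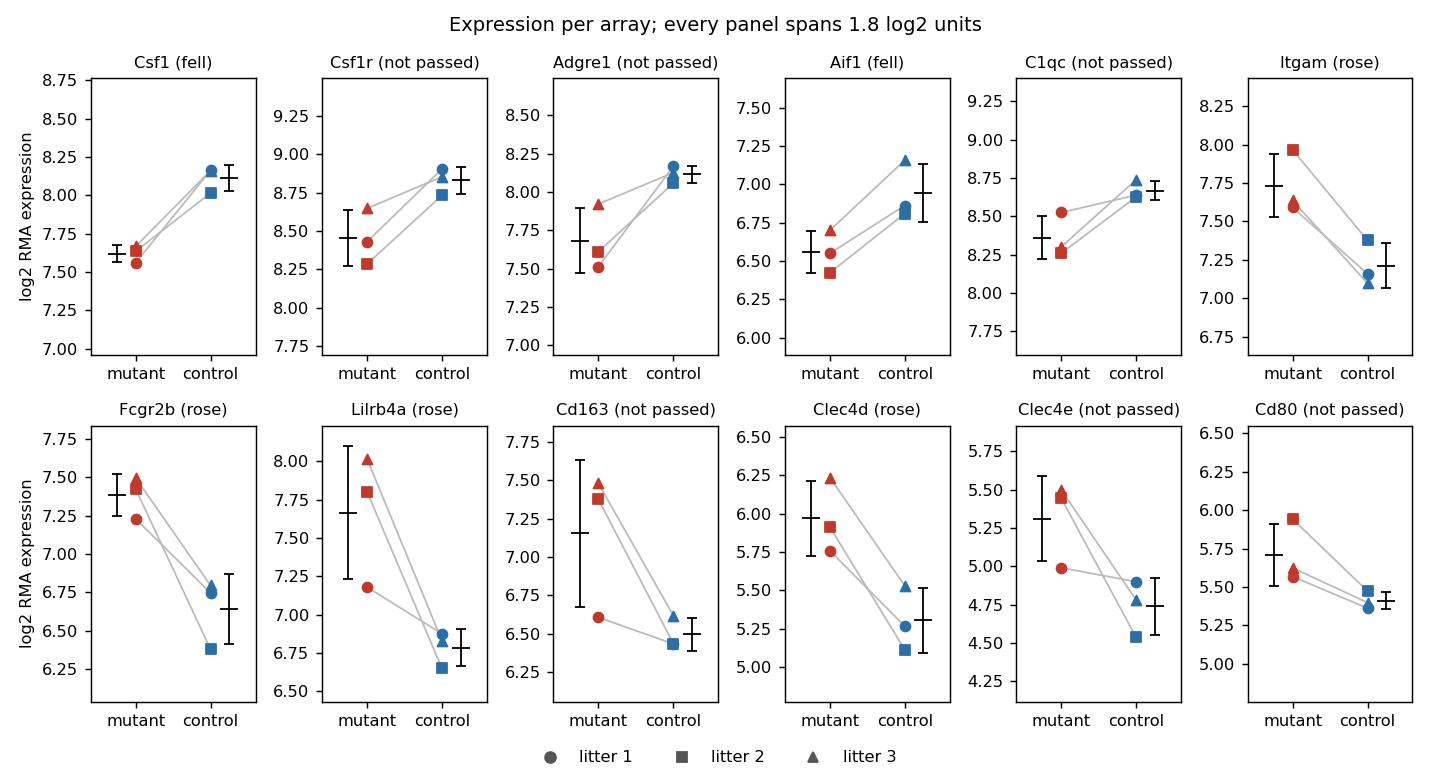
Log2 RMA expression (y axis) on each array for 12 genes, with mutants left and controls right. Symbols are litters, grey lines join littermates, and bars show mean and SD (n = 3 each). Csf1 and Aif1 are lower in the mutant of each litter, Itgam, Fcgr2b and Clec4d are higher, and for Lilrb4a, Cd163 and Clec4e mutant 1 lies nearest to the controls.

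The 3 genes of complement C1q, neighbours on chromosome 4 whose products form the recognition molecule of the classical pathway, did not pass. C1qc read 8.53, 8.26 and 8.30 in mutants and 8.64, 8.63 and 8.74 in controls, without overlap, and stood at -0.31 ± 0.093 (limma adjusted p = 0.142). C1qb stood at -0.21 ± 0.096 and C1qa at -0.16 ± 0.084. The mutant was lower than its littermate in each of the 3 litters for all 3 subunits, but in litter 2 by only 0.005 for C1qb and 0.06 for C1qa. Of all 19938 genes, 7158 had the same sign in the 3 litters.

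Of 5 receptors for antibody and their adaptors 1 rose and 4 did not pass. Fcgr2b encodes the Fc gamma receptor that restrains activating receptors in myeloid and B cells. It read 7.23, 7.42 and 7.50 in mutants, against 6.75, 6.38 and 6.79 in controls. The groups were clearly separate, and Fcgr2b rose by 0.74 ± 0.11, or 1.67-fold (limma adjusted p = 0.0142), and it passed without each litter in turn. The activating receptors Fcgr3 and Fcgr1 stood at 0.18 ± 0.088 and 0.11 ± 0.091 and did not pass. The signalling adaptors stood at 0.12 for Fcer1g, which encodes the Fc receptor gamma chain, and at -0.05 for Tyrobp, which encodes DAP12. Fcgr2b and Fcgr3 resemble each other closely in their extracellular parts, so probes may not separate them fully. Of 8 measured B cell markers 0 passed (limma, with 2 at an unadjusted p under 0.05), and their median difference was 0.04, -0.18 and -0.62 in litters 1, 2 and 3. The mean over these 8 genes was highest in control 3, at 6.62.

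The inhibitory receptors of the list were Sirpa and Lilrb4. Sirpa, whose product binds the CD47 signal on other cells, read 8.94, 9.05 and 9.09 in mutants and 9.14, 9.08 and 9.17 in controls, and stood at -0.11 ± 0.083. Lilrb4a, the gene to which the symbol Lilrb4 refers, encodes an inhibitory immunoglobulin-like receptor of myeloid and mast cells. It read 7.18, 7.80 and 8.02 in mutants, against 6.88, 6.65 and 6.83 in controls. It was 1.84-fold higher in mutants and rose by 0.88 ± 0.17 (limma adjusted p = 0.0292). Within litters 1, 2 and 3 the difference was 0.30, 1.15 and 1.19, and the gene passed without each litter in turn. Of 8 mast cell markers 2 fell, the protease genes Mcpt1 and Mcpt2, and 0 rose. The other 6 did not pass, and the median over the 8 was 0.005. Among the dimmest 30% of genes tested were 7 of the 8, Mcpt1 and Mcpt2 included.

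Scavenger receptors and the sialic acid receptor showed no member past the threshold. The largest difference was that of Cd163, which encodes the haemoglobin scavenger receptor of macrophages. Cd163 read 6.61, 7.38 and 7.48 in mutants and 6.43, 6.44 and 6.62 in controls. Mutants 2 and 3 were well above every control, while mutant 1 fell within their range, and the mean difference of 0.66 ± 0.15 had limma adjusted p = 0.0529. Without litter 1 it was 0.90, with adjusted p = 0.00620 (range over 12 alternatives 0.00620 to 0.284). Msr1, the class A scavenger receptor, stood at 0.30 ± 0.083 with the mutant higher in each of 3 litters, and did not pass (limma adjusted p = 0.113). Mrc1, the mannose receptor, Siglec1, sialoadhesin, and Marco, a receptor for bacteria and particles, stood at 0.06, 0.04 and -0.05. Their 95% intervals were -0.14 to 0.27 for Mrc1, -0.16 to 0.24 for Siglec1 and -0.29 to 0.19 for Marco.

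The C-type lectin receptors, which bind sugars and glycolipids of microbes and damaged cells, all had positive mean differences, and 1 of 4 rose. Clec4d, also called MCL, read 5.76, 5.91 and 6.23 in mutants, against 5.27, 5.11 and 5.53 in controls. Every mutant was above every control, and Clec4d rose by 0.67 ± 0.091, or 1.59-fold (limma adjusted p = 0.00910). It passed without each litter in turn. Clec4e, its neighbour on chromosome 6, encodes Mincle, the receptor with which MCL forms a complex. Clec4e read 4.99, 5.44 and 5.50 in mutants and 4.90, 4.54 and 4.78 in controls. Within litters 1, 2 and 3 it differed by 0.09, 0.91 and 0.72, with a mean of 0.57 ± 0.15 that did not pass (limma adjusted p = 0.0855). Without litter 1 it was 0.81, with adjusted p = 0.0102 (range 0.0102 to 0.345). Clec4n, which encodes Dectin-2 and lies on the other side of Clec4d, stood at 0.16. Clec7a, the gene of the beta-glucan receptor Dectin-1, and Clec10a, the gene of a galactose-binding lectin, stood at 0.14 ± 0.12 and 0.16 ± 0.12.

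Neutrophil markers moved with the members that rose. Neutrophils also carry CD11b, and their list had 8 rises and 0 falls among 14 genes, with a median of 0.52. The mean over these 14 genes was 6.39 to 6.87 in mutants and 5.79 to 5.96 in controls. Of the 14 genes 9 were among the dimmest 30% of genes tested. Cxcr2, S100a8, Retnlg, Ltf and Mmp8, which rose, were among these dim genes, so how far they changed is uncertain. Cd177, a surface protein of neutrophils, rose by 2.40 and the granule protein gene Ltf by 0.49. Cxcr2, S100a8, S100a9, Retnlg, Csf3r and Mmp8 also rose. The other 6 did not pass, with Ngp at 0.41, Ly6g at 0.29, Elane at 0.05, Camp at 0.02, Mpo at 0.01 and Mmp9 at -0.006. Cd177 had a mean of 11.14 in mutants and 8.74 in controls, while the mutant means of the other genes that rose were 4.99 to 7.28. Which cells gave the Cd177 signal was not tested. The part of neutrophils in the rise of Itgam, Fcgr2b, Clec4d and Lilrb4a was not tested. Of 10 genes shared by leukocytes 0 passed (limma, with 1 at an unadjusted p under 0.05). Ptprc, which encodes CD45, stood at -0.08. Of 14 T and NK cell markers Cd4 fell and 0 rose, and of 3 erythroid markers Alas2 rose. None of 5 eosinophil and 4 lymphatic endothelium markers passed (limma, with 0 and 1 at an unadjusted p under 0.05).

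Dendritic cell members did not pass in either direction. Cd80 and Cd86 encode costimulatory ligands for T cells. Cd80 read 5.57, 5.94 and 5.62 in mutants and 5.36, 5.47 and 5.40 in controls, and stood at 0.30 ± 0.0895 (limma adjusted p = 0.134). Another row for Cd80 stood at 0.05, with a negative difference in litter 1. Cd86 lay on the other side of 0, at -0.27 ± 0.10 (limma adjusted p = 0.272), and at -0.14 without litter 2. The transcription factor genes Zbtb46 and Batf3, which mark conventional dendritic cells, stood at -0.10 and -0.04, and Itgae, the gene of CD103 on dendritic cells and T cells, at -0.07. Their 95% intervals were -0.30 to 0.10 for Zbtb46, -0.23 to 0.15 for Batf3 and -0.27 to 0.14 for Itgae. Of 22 other dendritic cell genes 1 fell and 0 rose, and their median was -0.11, with 16 differences negative and 6 positive. At an unadjusted p under 0.05 (limma) stood 9 of the 22, against 15.1% of all genes. All mutants lay below all controls for 6 of them, against 9.78% of genes tested, and above for 1, against 10%. Id2, a transcriptional regulator that many other cells also express, was the one that fell. It read 9.44, 9.46 and 9.39 in mutants, against 9.82, 9.87 and 9.97 in controls, and fell by 0.46 ± 0.085 (limma adjusted p = 0.0283, and 0.160 without litter 3, range 0.00973 to 0.180). Clec9a, a receptor for dead cells on cross-presenting dendritic cells, read 4.83, 4.67 and 4.70 in mutants and 4.96, 5.63 and 5.29 in controls, and did not pass (limma adjusted p = 0.0878). Clec9a was also among the dimmest 30% of genes.

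A second list of 52 macrophage and monocyte genes outside the members, of which 48 were measured, had 3 rises and 3 falls and a median of 0.05. Of the 48, 22 stood at an unadjusted p under 0.05 (limma), against 15.1% of all genes. All mutants lay above all controls for 10 of them and below for 7, against 10% and 9.78% of genes tested. The genes that rose were Ccr2, Trem1 and Cd14. Ccr2, the chemokine receptor with which monocytes leave the marrow and enter tissue, read 6.54, 7.14 and 7.84 in mutants, against 6.16, 6.39 and 6.59 in controls. Mutant 1 overlapped with the controls, but each mutant was above its littermate, by 0.38, 0.76 and 1.25, and Ccr2 rose by 0.80 ± 0.15 (limma adjusted p = 0.0290). Without the litter block its adjusted p was 0.185 (range 0.00421 to 0.226). Trem1, an amplifying receptor of monocytes and neutrophils, read 5.68, 5.79 and 6.14 in mutants and 5.33, 4.97 and 5.24 in controls, and rose by 0.69 ± 0.12 (limma adjusted p = 0.0212, and 0.0504 without litter 3, range 0.00292 to 0.189). Trem1 was among the dimmest 30% of genes. Cd14, the co-receptor for bacterial lipopolysaccharide, read 8.11, 7.91 and 8.19 in mutants and 7.80, 7.54 and 7.68 in controls. It rose by 0.40 ± 0.084 (limma adjusted p = 0.0441), with adjusted p = 0.0502, 0.0877 and 0.259 without litters 1, 2 and 3 and 0.0760 without the litter block (range 0.0149 to 0.259).

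The genes of this second list that fell were Cx3cr1, Slc40a1 and Axl. Cx3cr1, the fractalkine receptor of resident macrophages in the gut, read 7.79, 7.81 and 7.91 in mutants, against 8.25, 8.31 and 8.33 in controls. Its groups were far apart relative to their spread, and it fell by 0.46 ± 0.079 (limma adjusted p = 0.0216), with adjusted p = 0.0580 without litter 2 and 0.0682 without litter 3 (range 0.00889 to 0.161). Slc40a1, the iron exporter ferroportin, which absorptive epithelium also makes, was 1.53-fold lower in mutants (limma adjusted p = 0.0242). Axl, a relative of Mertk that stromal cells also express, fell by 0.37 ± 0.080 (limma adjusted p = 0.0463), with adjusted p = 0.0776, 0.162 and 0.148 without litters 1, 2 and 3 (range 0.0235 to 0.210). Spi1, which encodes the lineage factor PU.1, stood at -0.23 and did not pass.

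**Figure D3:**
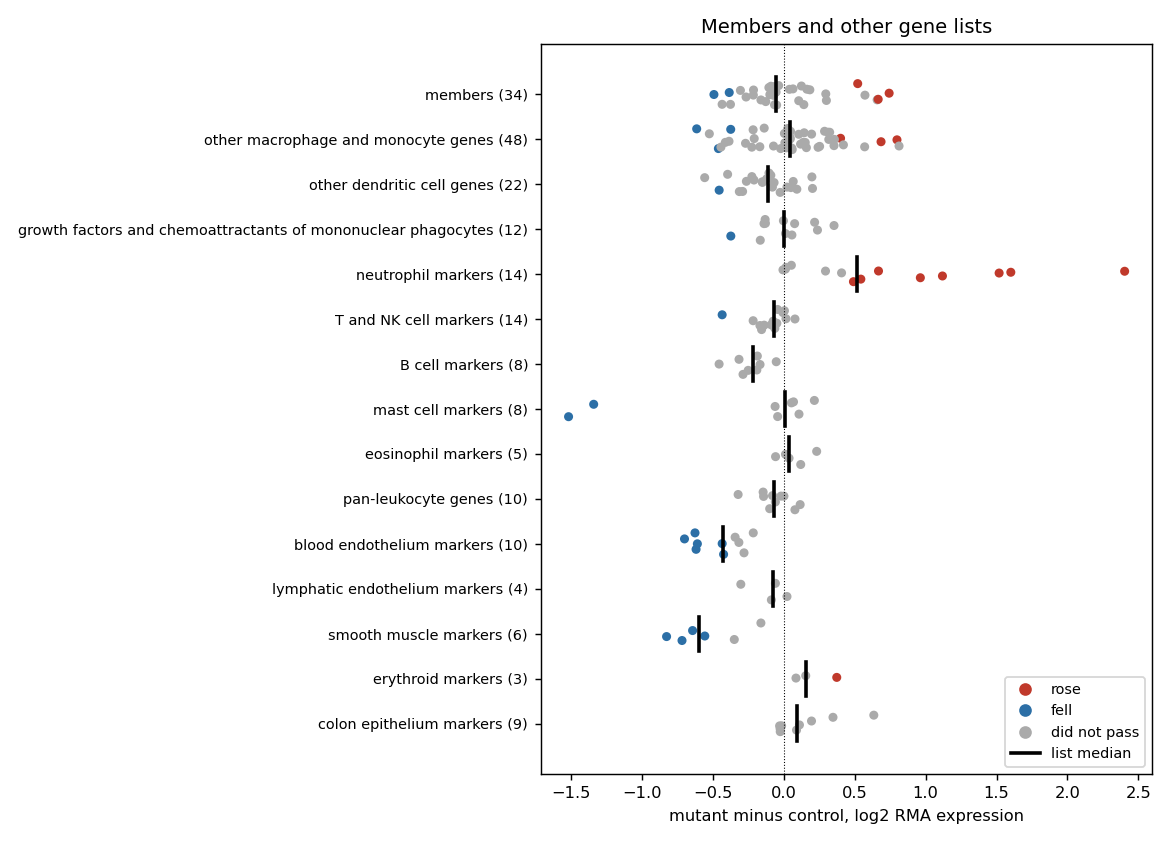
Difference between mutant and control (log2 RMA expression, x axis) of each measured gene in the members and in the other lists, with the number of measured genes in brackets. Black bars are list medians. The medians of the members (-0.06) and of the other macrophage and monocyte genes (0.05) lie near 0, that of the neutrophil markers lies at 0.52 and those of the smooth muscle and blood endothelium markers at -0.60 and -0.43.

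The promoter windows of the 5 members that passed, and of Clec4e beside Clec4d, are printed so that the genes that moved up and down can be set side by side. Each runs from 250 bases before to 50 bases after a transcription start annotated by RefSeq (GRCm38.p6), and is written in the direction of transcription. Capitals mark matches on either strand to GAGGAA, a core bound by PU.1, to TTGCNNAA, a form of the C/EBP site, to TGANTCA, the AP-1 site, and to GACCACCCA, the site of the hedgehog pathway's GLI factors. These matches shared 0 bases with each other.
Csf1 (chr3:107760420-107760719, minus strand): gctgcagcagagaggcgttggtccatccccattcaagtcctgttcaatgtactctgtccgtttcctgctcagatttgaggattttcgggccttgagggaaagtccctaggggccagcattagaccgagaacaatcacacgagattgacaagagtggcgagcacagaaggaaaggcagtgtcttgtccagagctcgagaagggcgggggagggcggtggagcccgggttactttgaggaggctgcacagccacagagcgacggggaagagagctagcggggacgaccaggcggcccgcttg
Aif1 (chr17:35176003-35176302, minus strand): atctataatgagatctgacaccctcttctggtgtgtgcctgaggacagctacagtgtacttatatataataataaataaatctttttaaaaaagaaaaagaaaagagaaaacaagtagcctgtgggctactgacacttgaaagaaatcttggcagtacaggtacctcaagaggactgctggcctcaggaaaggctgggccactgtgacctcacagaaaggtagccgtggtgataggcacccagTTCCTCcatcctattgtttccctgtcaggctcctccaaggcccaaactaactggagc
Fcgr2b (chr1:170976022-170976321, minus strand): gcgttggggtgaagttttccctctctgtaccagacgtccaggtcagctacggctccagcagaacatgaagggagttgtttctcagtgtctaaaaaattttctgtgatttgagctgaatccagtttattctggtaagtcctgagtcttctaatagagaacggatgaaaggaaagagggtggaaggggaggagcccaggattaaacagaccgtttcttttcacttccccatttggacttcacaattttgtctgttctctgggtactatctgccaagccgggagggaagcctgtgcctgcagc
Itgam (chr7:128062390-128062689, plus strand): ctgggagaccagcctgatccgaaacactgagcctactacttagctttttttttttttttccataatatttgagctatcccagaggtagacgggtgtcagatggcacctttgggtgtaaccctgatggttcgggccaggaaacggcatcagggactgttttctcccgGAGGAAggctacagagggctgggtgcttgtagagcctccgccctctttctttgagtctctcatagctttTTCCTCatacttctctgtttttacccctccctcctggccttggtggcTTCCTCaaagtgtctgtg
Clec4d (chr6:123261857-123262156, plus strand): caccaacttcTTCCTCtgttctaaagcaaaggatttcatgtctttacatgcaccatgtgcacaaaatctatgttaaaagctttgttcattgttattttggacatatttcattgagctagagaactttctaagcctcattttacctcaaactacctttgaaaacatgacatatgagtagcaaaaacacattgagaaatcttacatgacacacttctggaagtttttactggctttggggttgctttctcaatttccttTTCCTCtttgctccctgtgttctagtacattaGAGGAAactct
Clec4e (chr6:123289822-123290121, minus strand): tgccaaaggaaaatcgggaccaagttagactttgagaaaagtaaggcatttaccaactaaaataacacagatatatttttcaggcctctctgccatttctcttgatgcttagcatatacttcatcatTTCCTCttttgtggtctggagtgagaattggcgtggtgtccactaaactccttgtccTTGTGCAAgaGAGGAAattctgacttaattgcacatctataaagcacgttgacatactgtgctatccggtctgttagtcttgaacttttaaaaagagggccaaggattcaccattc

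Matches to GAGGAA stood 3 times each in the windows of Itgam and Clec4d, 2 times in that of Clec4e and 1 time in that of Aif1. The windows of Csf1 and Fcgr2b held none of the 4 motifs. Of 24 measured members with a window used, 15 held GAGGAA, which 28.3% of 32851 windows of the same length hold. The member windows were cut to 1 per gene and left out chromosome 18, where Csf1r lies. The other measured members outside the 24 had no window of this length under their symbol, so their promoters were not searched. The 32851 windows were not cut in these ways, so the shares are not strictly alike. TTGCNNAA was in 4 of the 24 and in 10.8% of all windows, TGANTCA in 5 and in 7.81%, and GACCACCCA in 0 and in 0.253%. These counts describe the letters of the windows and not binding.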

How the data were processed

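Colon tissue of 3 mutant and 3 control mice was compared, 1 array per mouse. The authors deposited log2 expression values made with RMA, per the submitters' processing notes. Its version is not given in the sources used here, nor is the genome build. Of 35557 rows, 21789 had 1 gene symbol in the platform annotation, and the row with the highest mean stood for each of 19938 genes. Precision is limited by the 3 arrays per group.

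Differences were tested with limma 3.58.1 in R 4.3.3 (lmFit, eBayes, two-sided, Benjamini-Hochberg adjustment over 19938 genes, threshold 0.05). The litter was a fixed block, because the series' design text states that mutant and control of one number are littermates. Over genes, the deviations within a litter correlated by 0.0128, 0.00516 and 0.0613, so the pairing rests on that text. Adjusted p values are from this fit unless a setting is named, errors beside differences are standard errors, and intervals are 95%. The code was tested on simulated data. Alternatives changed the block, the variance model, the normalization, the rows used or the litters included.

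The members and lists were chosen with earlier results of these data known. Array values are given for members that passed and for the member with the largest difference in each role group without one. Those of Csf1r, Adgre1, Clec4e, Lilrb4a and Clec9a were added after their values were seen. Of other lists, genes that passed are named; the rest were picked for mention after their values were seen.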

Additional observations from a re-analysis of the deposited data

How the results depend on the processing

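The 3 rises and 2 falls among the members came from the fit with the litter as a block. Without the replicate block limma called 2 rises (Clec4d, Fcgr2b) and 1 fall (Csf1), and with the litter as a random replicate block 1 fall. Array weights gave 5 rises, and the fit without the dimmest genes gave 4 falls. With every row of the table in the fit limma called 0 members in either direction, 12 of them at an unadjusted p under 0.05, and 1 rise and 1 fall among all genes. The unnamed rows had a median SD over arrays of 0.192, against 0.123 for the named ones, and the prior degrees of freedom were 3.01 in place of 5.85; which of the added rows account for the lost calls was not tested. Array weights gave 512 rises and 734 falls over all genes, against 330 and 421. Without each litter in turn the members had 2 to 5 rises and 1 fall each time. That fall was Csf1 without litters 1 and 2 but Adgre1 without litter 3, and Aif1 did not pass in any of these fits. All genes had 247 to 403 rises and 299 to 484 falls, and the members' median was -0.0538 to -0.0108. Leaving out 1 litter moved the difference by over 1.5 times, or turned its sign, for 0 of the 5 members that passed and for 21 of the 29 that did not. The 5 had passed on these same litters, and a ratio to a difference near 0 moves easily. These counts therefore do not test the calls. Of 399 values of single members under 12 alternatives, 10 changed sign. All 10 came from leaving out 1 litter and belonged to members that did not pass. Without each litter in turn their differences were -0.156 to 0.0339 for Flt3, -0.202 to 0.0083 for Mertk, -0.152 to 0.0183 for Trem2, -0.135 to 0.0173 for Ms4a7, -0.0343 to 0.102 for Siglec1, -0.151 to 0.080 for Marco, -0.027 to 0.276 for Clec10a, -0.171 to 0.113 for Itgax, -0.145 to 0.00829 for Itgae and -0.0714 to 0.0127 for Batf3. With 1 or 2 residual degrees of freedom per gene the test leans on the shared prior.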
